A study of Mus musculus with 6 samples.

Results

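The SOCS family comprises 8 genes in the mouse, Cish and Socs1 to Socs7, and all 8 were taken by name from the 21938 protein-coding genes of the annotation. For each gene, every peak was collected that touched the gene body or the 50 kb on either side of it, which is called its window here. Distances are given from the transcription start site (TSS), the 5′ end of the gene in GENCODE release M21 on the GRCm38 build.

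CIS and SOCS proteins are feedback inhibitors of cytokine signalling. Their SH2 domain binds phosphorylated tyrosines of cytokine receptors or Janus kinases, and their SOCS box recruits elongins B and C and a cullin 5 ubiquitin ligase, which marks bound proteins for degradation. Many SOCS genes are themselves targets of STAT transcription factors, and in macrophages SOCS1 and SOCS3 are best known for restraining interferon-γ signalling and signalling through gp130.

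The libraries were CUT&RUN profiles, in which an antibody directs a nuclease to a chromatin mark and the released DNA is sequenced. Bone marrow-derived macrophages (BMDMs) of young adult male C57BL/6 mice, grown from femur and tibia marrow in L929-conditioned medium and carrying no named allele, were treated with lipopolysaccharide (LPS) for 1 h or with PBS as the control. Under each treatment there was 1 library for H3K4me1, a mark of primed and active enhancers, and 1 for H3K27ac, a mark of active enhancers and promoters. The labels do not say whether cells of several mice were pooled. With 1 library per treatment and antibody there was no replicate check, so all values below describe these libraries and no test was made.

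The deposited lists held 64758 peaks for PBS H3K4me1, 73049 for LPS H3K4me1, 52 for PBS H3K27ac and 4200 for LPS H3K27ac. The total read number is unknown, but the median summit was reconstructed as 17 fragments in each H3K4me1 list, 11 in PBS H3K27ac and 9 in LPS H3K27ac. A gene with no peak is therefore one where nothing passed the peak caller's threshold at this depth. Of 12 macrophage marker genes, 12 had an H3K4me1 peak in the window in both lists, with a median of 20 under PBS and 23.5 under LPS, and 8 had one within 1000 bp of the TSS in each list. Among all genes the window shares were 70.7% and 74.1% and the promoter shares 15.8% and 24.1%. A peak in the window was common for markers of other cells too, with 5 of 5 B cell, 4 of 5 T cell, 4 of 5 neutrophil and 3 of 5 fibroblast genes under PBS and 5, 5, 4 and 4 of them under LPS, at medians of 2 to 7 peaks. Of the 5 fibroblast, 5 T cell, 5 B cell and 5 neutrophil markers, 0, 0, 0 and 2 had such a promoter peak under PBS and 0, 0, 1 and 2 under LPS. The neutrophil genes were S100a8 and Elane and the B cell gene was Ms4a1.

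After 1 h LPS, 5 of the 8 genes had an H3K27ac peak in the window, namely Cish, Socs3, Socs5, Socs6 and Socs7, and 3 genes, Socs1, Socs2 and Socs4, had none. Under PBS none of the 8 had an H3K27ac peak. Among all protein-coding genes, 27.7% had an LPS H3K27ac peak in the same kind of window and 0.588% a PBS H3K27ac peak, so a count of 0 of 8 under PBS is close to the background. The 5 genes held 6 LPS H3K27ac peaks between them, 2 at Socs5 and 1 at each of the others. Only the 2 at Socs5 reached into the 1000 bp on either side of a member's TSS, called its promoter here, against 5.01% of all genes with such a promoter peak under LPS and 0.0729% under PBS. Within 10 kb of the gene body, 2 members had an LPS H3K27ac peak, Socs5 and Socs6, beside 14.2% of all genes, and 0 a PBS one, beside 0.264%. When −log10 q had to reach 5, peaks at Socs5 and Socs7 were left. When a peak was kept only if the member had the nearest protein-coding TSS, peaks at Cish, Socs5 and Socs6 were left. The shares of all genes under these last settings were not computed, so these counts have no background beside them.

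H3K4me1 was far more widespread. All 8 windows held H3K4me1 peaks under both treatments, beside 70.7% of all genes under PBS and 74.1% under LPS. Within 10 kb of the gene body, 8 members had a PBS H3K4me1 peak, beside 51.9% of all genes, and 6 an LPS one, beside 57.6%, and the 2 without were Socs1 and Socs2. In total there were 125 PBS peaks, with 4 to 50 per gene, and 131 LPS peaks, with 3 to 54 per gene. Since the windows ranged from 103 kb at Socs1 to 362 kb at Socs6, the genes are compared by peaks per 100 kb. On that scale Cish was highest under PBS at 20.6 and Socs3 was highest under LPS at 17.3. Cish under LPS reached 15.9, Socs3 under PBS 17.3 and Socs6 13.8 under PBS and 14.9 under LPS. The medians over all protein-coding genes were 2.44 under PBS and 3.25 under LPS. Socs2 under LPS, at 2.28, was the only value of the 16 below its median.

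**Figure D1:**
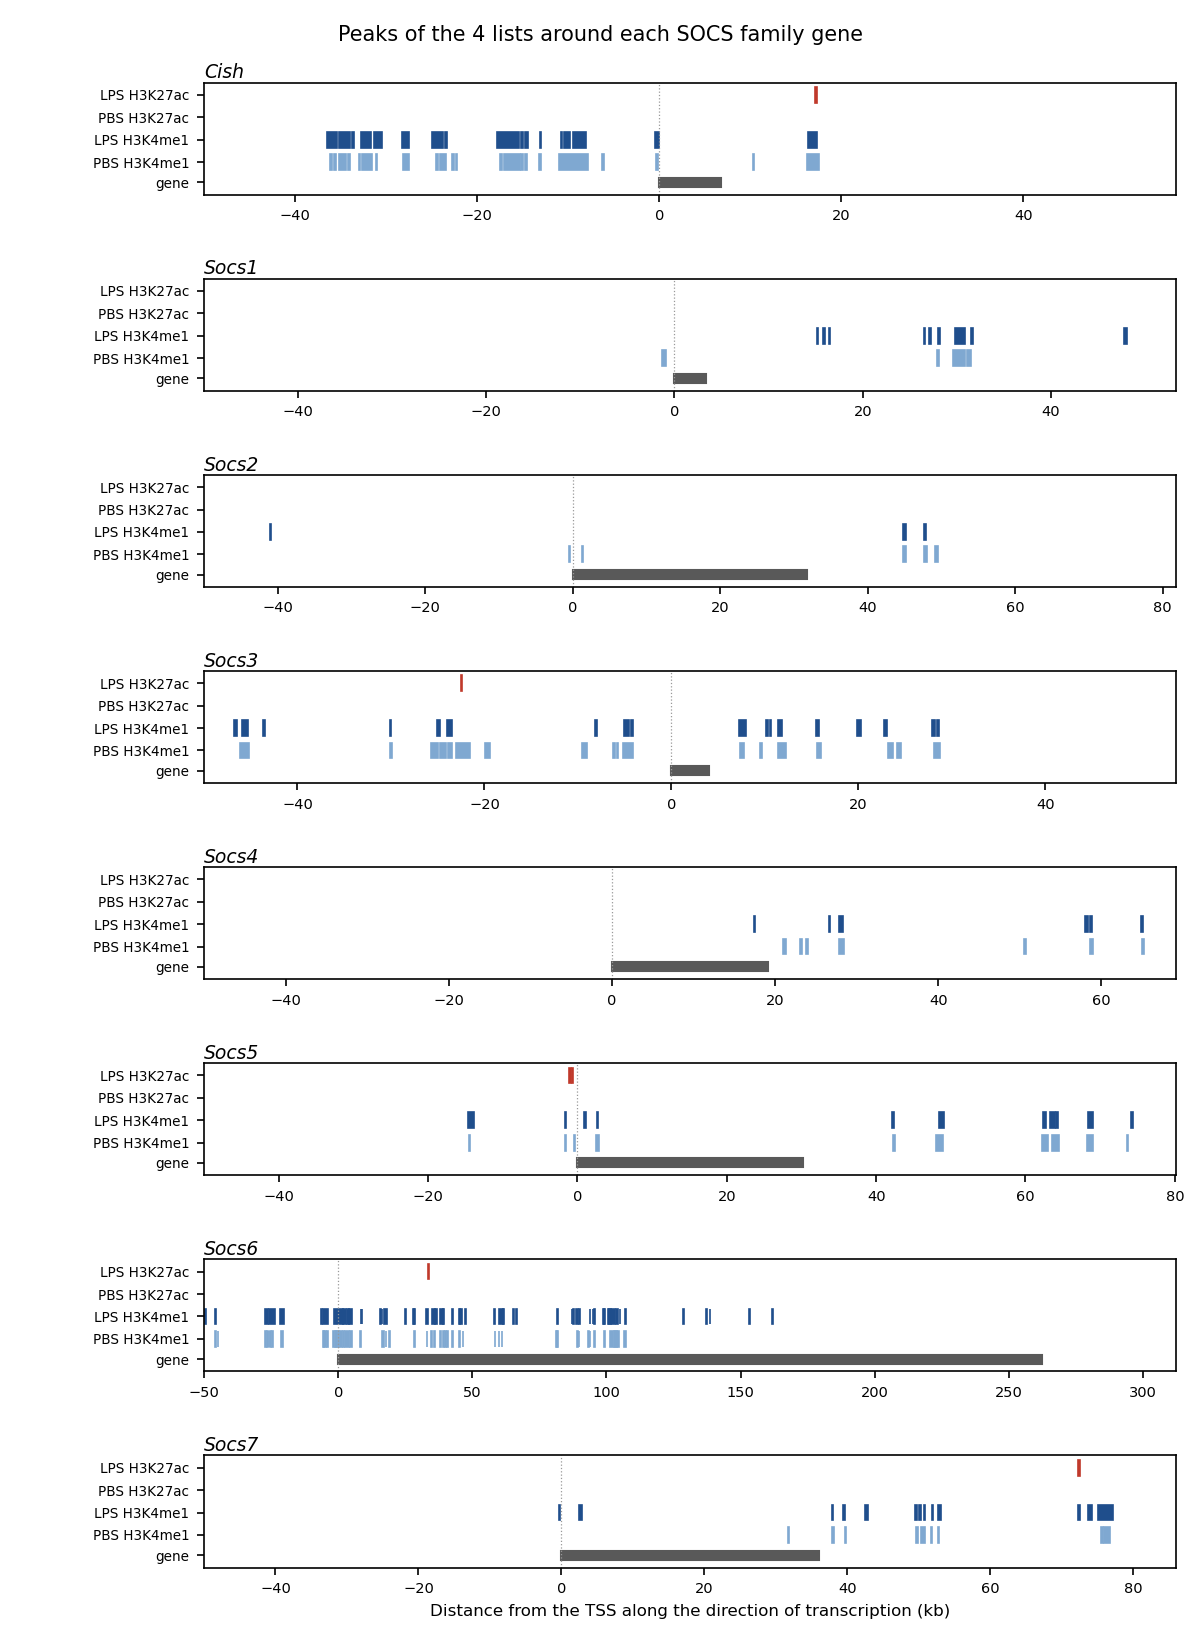
Map of the peaks of the 4 lists in each window, with distance from the TSS along the direction of transcription in kb on the x axis and 1 row per list above the gene body in grey. The 6 LPS H3K27ac peaks (red) lie 17264 bp downstream at Cish, 22393 bp upstream at Socs3, 1031 and 631 bp upstream at Socs5, 33669 bp inside Socs6 and 72322 bp downstream at Socs7, and the PBS H3K27ac rows are empty.

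**Figure D2:**
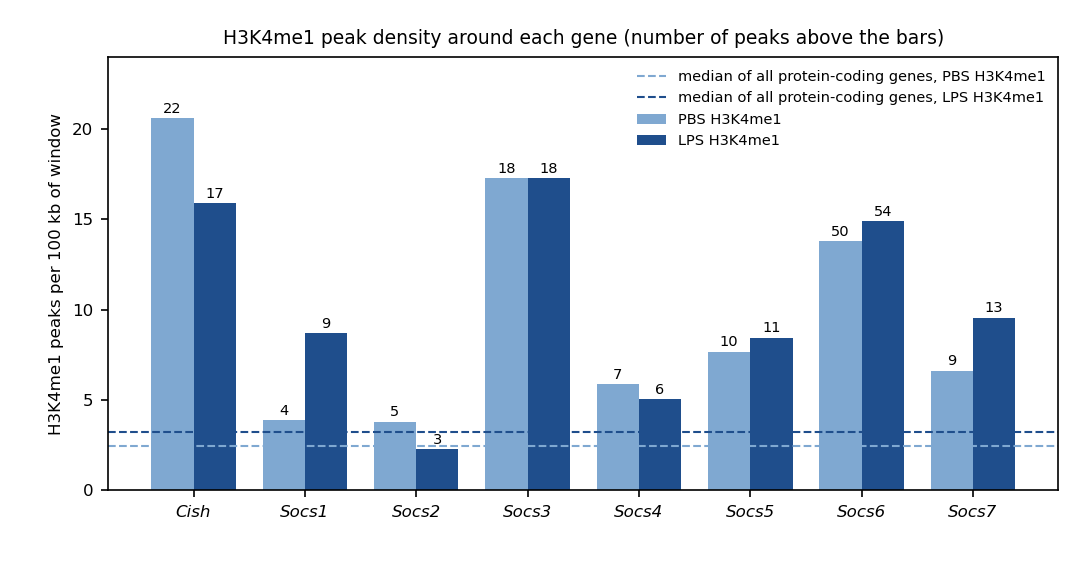
Bars give H3K4me1 peaks per 100 kb of window for each gene under PBS (light) and LPS (dark), with the number of peaks above each bar and dashed lines at the medians of all protein-coding genes, 2.44 and 3.25. Cish, Socs3 and Socs6 stand between 13.8 and 20.6, the other 5 genes between 2.28 and 9.56.

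Cish (ENSMUSG00000032578.7, chr9:107296026-107302784, plus strand) encodes CIS, the first described member of the family, which binds cytokine receptors that signal through STAT5. Its window held 22 H3K4me1 peaks under PBS and 17 under LPS. These are 20.6 and 15.9 peaks per 100 kb, higher than in 98.4% and 94.0% of all genes. The LPS peaks were fewer but wider, with a median width of 708 bp against 242 bp under PBS, so that they covered 13464 bp, against 12417 bp for the PBS peaks. Nearly all of them lay upstream of the gene, 20 of 22 under PBS and 16 of 17 under LPS.

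The upstream peaks of Cish fell mostly inside its neighbour. Mapkapk3, which encodes a kinase activated by p38, starts 6149 bp upstream of Cish on the opposite strand, and 18 of the 22 PBS peaks and 15 of the 17 LPS peaks had their summit in it. By nearest TSS, 3 PBS peaks and 2 LPS peaks belonged to Cish. The strongest H3K4me1 peaks of the window were of this group. Under PBS the highest −log10 q was 15.7, at chr9:107279000-107280683, and the next was 14.9, at chr9:107263374-107264437. Under LPS the highest was 13.9, at chr9:107278208-107280656, a peak of 2449 bp that overlapped the PBS one, followed by 11.5 at chr9:107260846-107262064. The widest PBS peak, 3172 bp at chr9:107285029-107288200, lay in Mapkapk3 as well.

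A small H3K4me1 peak sat at the Cish promoter itself under both treatments. The PBS peak, chr9:107295646-107295900, was 255 bp wide with 9 fragments at its summit and a −log10 q of 2.61, and the summit lay 184 bp upstream of the TSS. The LPS peak, chr9:107295527-107295992, was 466 bp wide with 16 fragments at its summit and a −log10 q of 6.22, 254 bp upstream. Both lay in an intron of the non-coding gene Gm17040. A −log10 q also depends on the depth of each library, so these values are not a measure of change.

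The H3K27ac peak of Cish under LPS, chr9:107313189-107313337, lay beyond the other end of the gene. It was intergenic, 149 bp wide and 17264 bp downstream of the TSS, and Cish was the gene with the nearest protein-coding TSS. Its summit had 11 fragments, a fold enrichment over the local background of 5.80 and a −log10 q of 4.43, rank 1410 of the 4200 LPS H3K27ac peaks. It lay within the PBS H3K4me1 peak chr9:107312284-107313563, which had a −log10 q of 12.6, and overlapped the LPS H3K4me1 peak chr9:107312370-107313315, which had 8.86.

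Sequence is shown for the LPS H3K27ac sites of Cish, Socs3 and Socs7, 300 bases centred on each summit, for 1 shared H3K4me1 site of Socs1 and for promoters that hold a searched motif. The letters searched on both strands were TTCNNNGAA for the STAT motif, TGANTCA for the motif of AP-1 factors, TGACGTCA for the cyclic AMP response element (CRE), GAGGAAGT for the motif of PU.1, the core promoter sequence TATAAA, and NF-κB by its consensus. Capitals mark a match, which describes the sequence and does not show a bound site. The Cish H3K27ac window is chr9:107313140-107313439, plus strand, GRCm38, and none of these letters are in it. The Cish promoter is the RefSeq window chr9:107296409-107296708, plus strand, GRCm38.p6, with 250 bases before and 50 after the RefSeq start at base 251. That start lies 633 bp downstream of the GENCODE TSS from which the distances above were taken. It holds 2 STAT matches, at bases 251 to 259 and 262 to 270. At least 1 STAT match is found in 8.47% of 27025 RefSeq promoters of the same length and 2 or more in 0.463%, and this second share was looked up after the matches were seen. STAT letters were found in 2 of the 4 RefSeq promoters searched, those of Cish and Socs3, and in neither that of Socs1 nor that of Socs4. The Cish promoter window lies 509 bp from the nearest PBS and 417 bp from the nearest LPS H3K4me1 peak.
Cish H3K27ac summit: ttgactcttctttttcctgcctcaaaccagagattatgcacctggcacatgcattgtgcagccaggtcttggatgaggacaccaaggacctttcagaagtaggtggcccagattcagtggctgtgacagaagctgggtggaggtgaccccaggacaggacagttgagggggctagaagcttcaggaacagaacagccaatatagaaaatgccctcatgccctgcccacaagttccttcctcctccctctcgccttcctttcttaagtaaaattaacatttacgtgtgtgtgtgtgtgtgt
Cish promoter: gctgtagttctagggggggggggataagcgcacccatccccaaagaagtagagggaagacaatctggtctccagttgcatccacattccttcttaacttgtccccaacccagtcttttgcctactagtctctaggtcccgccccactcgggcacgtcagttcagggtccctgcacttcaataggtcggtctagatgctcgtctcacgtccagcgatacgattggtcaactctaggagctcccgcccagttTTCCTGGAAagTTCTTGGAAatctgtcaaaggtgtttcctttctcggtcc

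Socs2 (ENSMUSG00000020027.18, chr10:95385362-95417180, minus strand) is the closest relative of Cish and is known for limiting growth hormone signalling. It had the sparsest H3K4me1 of the family. There were 5 peaks under PBS and 3 under LPS in a window of 132 kb with no other protein-coding TSS, covering 1509 bp and 842 bp. No H3K27ac peak was listed in the window, and under LPS the closest one was 98025 bp from the TSS.

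The H3K4me1 peaks next to the Socs2 start were listed under PBS only. The promoter peak, chr10:95417494-95417642, was 149 bp wide with 13 fragments and a −log10 q of 2.06, 343 bp upstream in an exon of the non-coding gene 5730420D15Rik. A second one, chr10:95415754-95415943, lay 1251 bp inside the gene, also at 2.06. Both were close to the caller's threshold, as the lowest −log10 q in that list was 2.02. Under LPS the nearest H3K4me1 peak was 40933 bp away. The strongest PBS peaks lay beyond the 3′ end, at chr10:95367580-95367983 with a −log10 q of 10.7, the widest at 404 bp, and at chr10:95369074-95369470 with 9.01. The strongest LPS peak, chr10:95369232-95369522 at 6.51, overlapped the latter. For all of these strongest peaks the nearest protein-coding TSS was that of Cradd, outside the window. Socs2 had the nearest TSS of 3 of 5 PBS and 2 of 3 LPS peaks. The second LPS peak, chr10:95371930-95372335 at 5.15, was the widest at 406 bp and also had a PBS counterpart.

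Socs1 (ENSMUSG00000038037.5, chr16:10782240-10785536, minus strand) encodes an inhibitor that blocks the kinase activity of JAKs directly and restrains interferon-γ responses. No H3K27ac peak was listed in its window, and the nearest one under LPS was 467704 bp from the TSS, beside a median of 183748 bp over all genes. H3K4me1 was listed as 4 peaks under PBS and 9 under LPS. More LPS than PBS peaks were also listed at Socs5, Socs6 and Socs7 and for 47.4% of all genes, and fewer at Cish, Socs2 and Socs4 and for 17.2%. The covered length hardly differed, at 2423 bp under PBS and 2738 bp under LPS, since the added LPS peaks were narrow.

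The H3K4me1 peaks of Socs1 stood partly at different places in the 2 lists. Of the 4 PBS peaks, 2 overlapped an LPS peak and another lay 10 bp from one, while the promoter peak stood apart. The PBS list had a promoter peak, chr16:10786443-10786905, 463 bp wide, with 14 fragments and a −log10 q of 4.02, 939 bp upstream. The LPS list had no peak upstream at all, and all 9 of its peaks lay downstream, the nearest 15115 bp from the TSS. Socs1 had the nearest protein-coding TSS of every one of these 13 peaks, although the protamine and transition protein genes Prm1, Prm2, Prm3 and Tnp2 share the window upstream of it. The lists met at 2 sites. At the smaller one, chr16:10757416-10757691 under PBS overlapped chr16:10757343-10757534 under LPS. The main one lay 30836 bp downstream by the LPS summit. At this main site chr16:10754649-10755761 was the strongest and widest LPS peak, 1113 bp with 29 fragments and a −log10 q of 9.77. The PBS peak chr16:10754624-10755901, 1278 bp with 33 fragments and a −log10 q of 5.79, was likewise the strongest and widest of its list. The next strongest were chr16:10768971-10769145 under LPS, at 5.46, and the promoter peak under PBS.

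The sequence at the main shared downstream site is shown because AP-1 letters recur in it. The window, chr16:10754550-10754849 on the plus strand of GRCm38, is centred on the LPS H3K4me1 summit and has 4 AP-1 matches, at bases 63 to 69, 120 to 126, 195 to 201 and 238 to 244, of which the first lies before the peak begins at base 100. Of 73047 LPS H3K4me1 summit windows, 14% held at least 1 AP-1 match and 7, or 0.00958%, held 4 or more. The site was picked as the strongest LPS peak of Socs1 and the count of 4 was looked up after the matches were seen. The LPS H3K4me1 summit window at the Cish promoter, chr9:107295622-107295921, was searched as well and held none of the letters. No STAT, CRE, PU.1, NF-κB or TATA letters were found in the Socs1 window.
Socs1 downstream H3K4me1 summit: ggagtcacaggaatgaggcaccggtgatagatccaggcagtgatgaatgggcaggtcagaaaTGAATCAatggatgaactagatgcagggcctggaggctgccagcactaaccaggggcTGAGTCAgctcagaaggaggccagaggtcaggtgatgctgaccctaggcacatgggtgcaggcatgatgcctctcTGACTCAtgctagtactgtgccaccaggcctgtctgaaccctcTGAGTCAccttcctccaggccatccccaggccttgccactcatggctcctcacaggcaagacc

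Socs3 (ENSMUSG00000053113.3, chr11:117966079-117970047, minus strand), the paralogue of Socs1, encodes an inhibitor that binds gp130 and JAKs and limits signalling by interleukin-6. It was densely flanked by H3K4me1 peaks, 18 under each treatment or 17.3 per 100 kb, higher than in 96.8% of genes under PBS and 95.5% under LPS. The equal counts hid a difference in width. The PBS peaks covered 10407 bp and the LPS peaks 6213 bp, a ratio of LPS to PBS of 0.597, while the median ratio over the 15118 genes with peaks in both lists was 1.34. A lower covered length under LPS was found for 20% of those genes. The widest PBS peak was 1463 bp and the widest LPS peak 751 bp.

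No H3K4me1 peak lay within 1000 bp of the Socs3 TSS under either treatment, as for 71% of all genes. The nearest was 4156 bp away under PBS and 4153 bp under LPS, at the overlapping peaks chr11:117974203-117975276 and chr11:117974200-117974350. Peaks flanked the gene on both sides, 11 upstream and 7 downstream under PBS and 9 and 9 under LPS. The upstream ones reached into Pgs1, which encodes an enzyme of phosphatidylglycerol synthesis and starts 16245 bp from the Socs3 TSS on the other strand, and 7 PBS and 6 LPS summits lay in that gene. Socs3 had the nearest TSS for 10 of 18 PBS and 12 of 18 LPS peaks. The strongest PBS peaks were chr11:117957830-117958697, with a −log10 q of 11.1, and chr11:117991645-117993107, with 10.2. Those under LPS were chr11:117941809-117942182, with 9.49, and the widest, chr11:117962023-117962773, with 5.82, both downstream.

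The H3K27ac peak of Socs3, chr11:117992438-117992564, was the weakest of the 6. It was 127 bp wide and 22393 bp upstream of Socs3, in an intron of Pgs1 whose TSS lay 6148 bp away. Its summit had 9 fragments, a fold enrichment of 4.83 and −log10 q 2.96, rank 3044 of 4200. It lay inside the 1463 bp PBS H3K4me1 peak named above, while no LPS H3K4me1 peak was closer than 916 bp. The window around its summit, chr11:117992290-117992589 on the plus strand of GRCm38, has no CpG and none of the searched letters. The RefSeq promoter of Socs3, chr11:117969317-117969616 on the minus strand of GRCm38.p6, has 31 CpGs and 1 STAT match at bases 97 to 105. The RefSeq start lies 681 bp downstream of the GENCODE TSS used for distances, and the window's nearest H3K4me1 peaks were 4587 bp away under PBS and 4584 bp under LPS.
Socs3 H3K27ac summit: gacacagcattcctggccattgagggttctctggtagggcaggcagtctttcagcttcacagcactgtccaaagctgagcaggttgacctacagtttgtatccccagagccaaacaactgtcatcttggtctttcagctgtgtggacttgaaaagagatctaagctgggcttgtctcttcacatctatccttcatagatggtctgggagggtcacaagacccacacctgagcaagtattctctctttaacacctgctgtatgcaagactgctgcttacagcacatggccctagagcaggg
Socs3 promoter: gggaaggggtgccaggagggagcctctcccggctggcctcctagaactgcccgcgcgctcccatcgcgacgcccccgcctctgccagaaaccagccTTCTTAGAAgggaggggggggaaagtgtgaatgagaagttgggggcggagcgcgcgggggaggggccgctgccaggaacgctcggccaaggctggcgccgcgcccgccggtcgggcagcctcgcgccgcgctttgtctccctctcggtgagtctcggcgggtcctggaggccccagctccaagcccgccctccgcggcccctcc

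Socs5 (ENSMUSG00000037104.9, chr17:87107679-87137839, plus strand) encodes a family member with a long N-terminal region that has been linked to interleukin-4 and epidermal growth factor receptor signalling. It was the member with H3K27ac at its promoter as annotated, where peaks were counted by their edges. After LPS 2 H3K27ac peaks lay side by side upstream of the TSS. The first, chr17:87106505-87106773, was 269 bp wide with its summit 1031 bp upstream, 14 fragments, a fold enrichment of 7.49 and −log10 q 7.46, rank 298 of 4200. The second, chr17:87106926-87107135, was 210 bp wide with its summit 631 bp upstream, 11 fragments, a fold enrichment of 6.77 and −log10 q 5.66, rank 714. Both were intergenic. Neither overlapped a PBS H3K27ac peak, but that list held only 52 peaks. The share of all LPS H3K27ac peaks that overlapped one was not computed. The nearest PBS H3K27ac peak was 33417563 bp from the TSS, beside a median of 13374700 bp over all genes.

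At the Socs5 promoter the H3K27ac and H3K4me1 peaks lay side by side without overlap. Neither H3K27ac peak touched an H3K4me1 peak of either list. The PBS list had a promoter H3K4me1 peak at chr17:87107223-87107384, 162 bp wide with 14 fragments and a −log10 q of 2.81, which lay 389 bp upstream, between the H3K27ac peaks and the TSS, and had no LPS counterpart. The LPS list had one at chr17:87108565-87108811, 247 bp wide with 16 fragments and a −log10 q of 6.12, which lay 1057 bp inside the gene, in an intron, and had no PBS counterpart. A further H3K4me1 peak upstream of the H3K27ac pair was listed under both treatments, with its summit 1491 bp from the TSS under PBS and 1555 bp under LPS.

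The remaining H3K4me1 peaks of Socs5 lay mostly downstream of the gene and were largely shared. There were 10 peaks under PBS and 11 under LPS in all, and Socs5 had the nearest protein-coding TSS of each. Of the PBS peaks 8 had an LPS counterpart and of the LPS peaks 9 a PBS one. The strongest were chr17:87156073-87156786 under LPS, with a −log10 q of 13.0, and chr17:87169876-87170765 under PBS, with 12.9, followed by chr17:87093054-87093849 under LPS, with 11.7, and chr17:87171301-87172191 under PBS, with 9.99. The widest PBS peak was chr17:87175880-87176789, at 910 bp, and the widest LPS peak was the 796 bp one at chr17:87093054-87093849.

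Socs4 (ENSMUSG00000048379.9, chr14:47276931-47296102, plus strand), the closest relative of Socs5, had no H3K27ac peak in its window, and the nearest one under LPS was 87833 bp from the TSS. Its start lies 74 bp from that of Wdhd1, a DNA replication gene on the other strand. No H3K4me1 peak was within 1000 bp of it or anywhere upstream. All 7 PBS peaks lay downstream of the gene, and of the 6 LPS peaks 5 lay downstream and 1 in the gene. The last of these, chr14:47294363-47294541 in the Socs4 untranslated region, was the strongest LPS peak with a −log10 q of 9.20 and 18 fragments, followed by chr14:47334963-47335309 with 7.16. The strongest PBS peaks were chr14:47304796-47305337, which was also the widest at 542 bp, with 8.33, and chr14:47341887-47342147 with 7.52. The LPS counterpart of the former, chr14:47304822-47305321, was the widest LPS peak at 500 bp. For 0 of these 13 peaks was Socs4 the gene with the nearest TSS, which was that of Mapk1ip1l or of Lgals3, the gene of galectin-3.

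Socs7 (ENSMUSG00000038485.5, chr11:97362551-97398542, plus strand) encodes the member best known for binding adaptor proteins and insulin receptor substrates. It had 9 H3K4me1 peaks under PBS and 13 under LPS, and the covered length was 2851 bp and 5749 bp. The ratio of LPS to PBS, 2.02, was the highest of the 8 genes. An H3K4me1 peak at the promoter was listed under LPS only. This peak, chr11:97362265-97362411, was 147 bp wide, 286 bp upstream, with 8 fragments and a −log10 q of 2.47, close to the threshold. Under PBS the nearest peak was 31694 bp away, in the untranslated region at the other end of the gene.

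Most peaks of the Socs7 window lay towards Arhgap23, which starts 52982 bp downstream on the same strand. Socs7 had the nearest TSS of 0 of 9 PBS and 2 of 13 LPS H3K4me1 peaks. The strongest and widest LPS peak was chr11:97437603-97439713, 2111 bp with a −log10 q of 11.8, in an intron of Arhgap23, followed by chr11:97411960-97412311 with 9.72. The strongest PBS peaks were chr11:97412913-97413403 with 7.32 and chr11:97412159-97412431 with 6.69, and the widest was chr11:97438463-97439328 at 866 bp.

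The H3K27ac peak of the Socs7 window, chr11:97434781-97435164, was the strongest and widest of the 6 but the farthest from its member. It was 384 bp wide, 72322 bp downstream of the Socs7 TSS and 19340 bp inside Arhgap23, in an intron. Its summit had a fold enrichment of 7.79 and −log10 q 7.59, rank 288 of 4200. For the 13 fragments given to it, 2 whole numbers fitted the deposited values, and the closer one is used. It overlapped the LPS H3K4me1 peak chr11:97434821-97435108, whereas the nearest PBS H3K4me1 peak was 2832 bp away. The window around the summit, chr11:97434723-97435022 on the plus strand of GRCm38, holds none of the searched letters.
Socs7 H3K27ac summit: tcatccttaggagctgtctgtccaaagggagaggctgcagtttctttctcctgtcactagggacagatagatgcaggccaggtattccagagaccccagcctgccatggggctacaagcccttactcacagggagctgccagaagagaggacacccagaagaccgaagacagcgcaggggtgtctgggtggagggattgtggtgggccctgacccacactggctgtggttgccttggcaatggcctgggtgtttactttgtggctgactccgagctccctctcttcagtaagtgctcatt

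**Figure D3:**
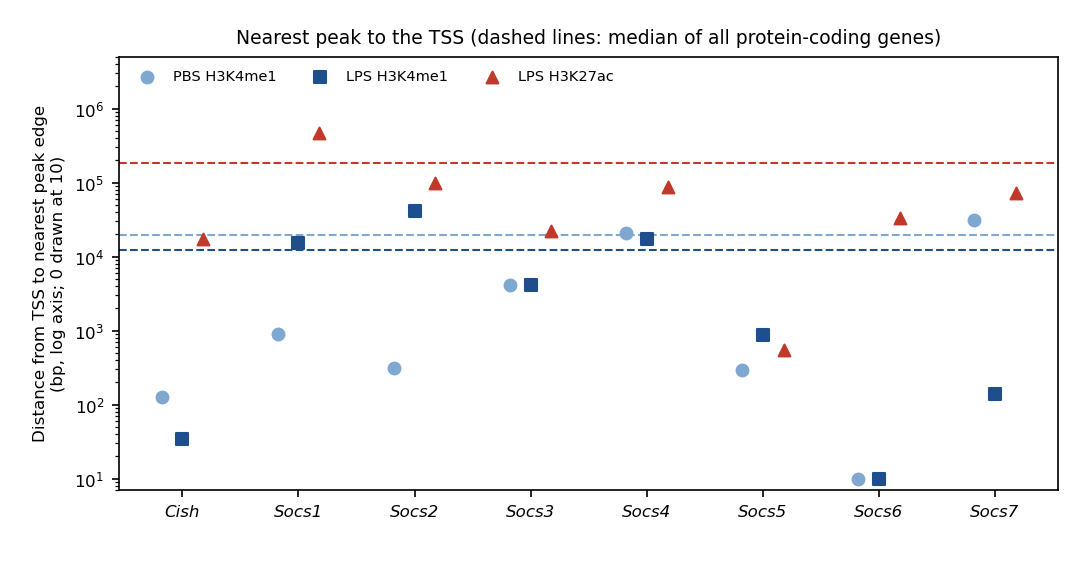
Distance in bp, on a log axis, from the TSS of each gene to the edge of the nearest peak of 3 lists, with dashed lines at the medians of all protein-coding genes (19471.5 bp for PBS H3K4me1, 12298 bp for LPS H3K4me1 and 183748 bp for LPS H3K27ac). The LPS H3K27ac value is 544 bp at Socs5 and 467704 bp at Socs1, and a peak that covers the TSS, as at Socs6, is drawn at 10 bp.

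Across the family, 5 genes had an H3K4me1 promoter peak under PBS, which were Cish, Socs1, Socs2, Socs5 and Socs6, and 4 under LPS, which were Cish, Socs5, Socs6 and Socs7. Among all genes the shares were 15.8% and 24.1%. When −log10 q had to reach 5, Socs6 alone kept a PBS promoter peak, and the PBS promoter peaks of Cish, Socs1, Socs2 and Socs5 all had lower values. At the same value, Cish, Socs5 and Socs6 kept an LPS promoter peak and Socs7 did not. The shares of all genes at this value were not computed. The promoter peaks of Socs1 and Socs2 were listed under PBS only and that of Socs7 under LPS only. Of all genes, 71% had no H3K4me1 promoter peak in either list. The share with one under 1 treatment only was not computed, so these members have no background beside them.

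Socs6 (ENSMUSG00000056153.15, minus strand), the closest relative of Socs7, encodes a member that binds receptor tyrosine kinases. It is the longest gene of the family at 262258 bp. This span takes in all annotated transcripts, so the length and the counts inside the gene depend on which transcripts are included. The H3K4me1 peaks of Socs6 were the most numerous, 50 under PBS and 54 under LPS, and 36 and 47 of them lay inside the gene. Per 100 kb this was higher than in 93.6% and 92.8% of all genes. They covered 20616 bp under PBS and 30567 bp under LPS, a ratio of 1.48. Socs6 had the nearest protein-coding TSS of 43 PBS and 50 LPS peaks.

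The annotated start of Socs6 was the only TSS of the family covered by an H3K4me1 peak. The LPS list had 1 wide peak there, of 3206 bp, with 45 fragments and a −log10 q of 13.9. The PBS list had 4 separate peaks within 1000 bp of the TSS, 256 to 824 bp wide with −log10 q from 3.59 to 18.1, and each of them overlapped that LPS peak. The strongest peaks of the window lay 17052 bp inside the gene under PBS, with a −log10 q of 18.1 shared by the promoter peak 948 bp upstream, and 17081 bp inside under LPS, with 19.9. The next LPS peak, at 17.8, lay 4742 bp upstream. The widest PBS peak was 1371 bp.

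The H3K27ac peak of Socs6 under LPS was 154 bp wide and lay 33669 bp inside the gene as annotated, but 404 bp from the start of the transcript Socs6-202. With the start of any transcript counted, Socs5 and Socs6 had an H3K27ac promoter peak, beside 6.14% of all genes. The summit had 11 fragments, a fold enrichment of 5.99 and −log10 q 4.67, rank 1219 of 4200. No H3K4me1 peak overlapped it, and the nearest were 357 bp away under PBS and 351 bp under LPS.

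Overlap between the treatments was counted for H3K4me1 peaks, where 1 shared bp made a counterpart. Of the 125 PBS peaks around the 8 genes, 92 had an LPS counterpart, which is 73.6% (95% Wilson interval 65.3 to 80.5%), beside 73.1% of the whole list. Of the 131 LPS peaks 82 had a PBS counterpart, 62.6% (54.1 to 70.4%), beside 61.2%. The intervals cover counting error only and treat all peaks as independent. Socs6 alone held 50 of the PBS and 54 of the LPS peaks, and adjacent peaks can share a counterpart. The intervals can therefore be too narrow. Each holds the share of its whole list, which is not a test.

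**Figure D4:**
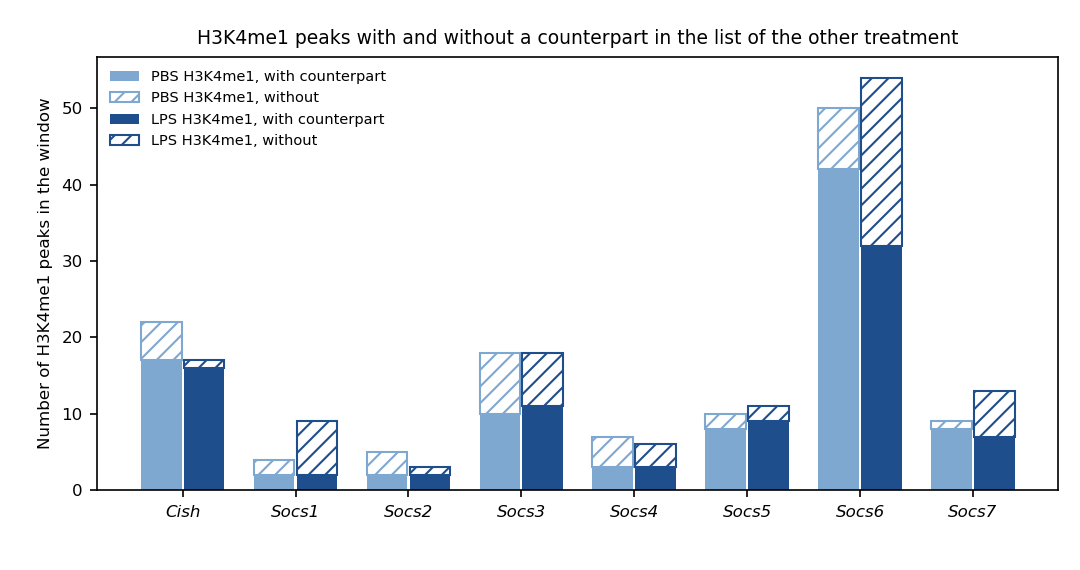
Bars give the number of H3K4me1 peaks in each window under PBS (light) and LPS (dark), filled for peaks with a counterpart in the list of the other treatment and hatched for those without. At Socs6, 22 of 54 LPS peaks have no PBS counterpart, and at Socs1, 7 of 9.

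The shares of single genes were spread more widely, but most rest on few peaks, and differences between genes were not tested. At Cish 16 of 17 LPS peaks had a PBS counterpart (95% Wilson interval 73 to 99%) and at Socs5 9 of 11 (52.3 to 94.9%). At Socs1 it was 2 of 9 (6.32 to 54.7%). Of the PBS peaks, 8 of 9 at Socs7 (56.5 to 98%), 42 of 50 at Socs6 (71.5 to 91.7%) and 8 of 10 at Socs5 (49 to 94.3%) had an LPS counterpart. It was 2 of 5 at Socs2 (11.8 to 76.9%) and 3 of 7 at Socs4 (15.8 to 75%). The covered H3K4me1 length was lower under LPS than under PBS at 4 of the 8 genes, beside 20% of all genes with peaks in both lists, with ratios of LPS to PBS of 0.558 at Socs2, 0.597 at Socs3, 0.782 at Socs4 and 0.947 at Socs5. It was higher at Cish, at 1.08, and at Socs1, at 1.13, as well as at Socs6 and Socs7. Only the ratios of Socs6 and Socs7 were above 1.34, the median over all genes with peaks in both lists.

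Of the 6 LPS H3K27ac peaks around the family, 3 were overlapped by an H3K4me1 peak of either list, those at Cish, Socs3 and Socs7. This is 50% (95% Wilson interval 18.8 to 81.2%), beside 39.3% of the whole LPS H3K27ac list. The peak at Cish overlapped H3K4me1 of both lists, that at Socs3 PBS H3K4me1 only and that at Socs7 LPS H3K4me1 only. The 3 at Socs5 and Socs6 lay next to H3K4me1 peaks, at gaps of 88 to 714 bp.

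**Figure D5:**
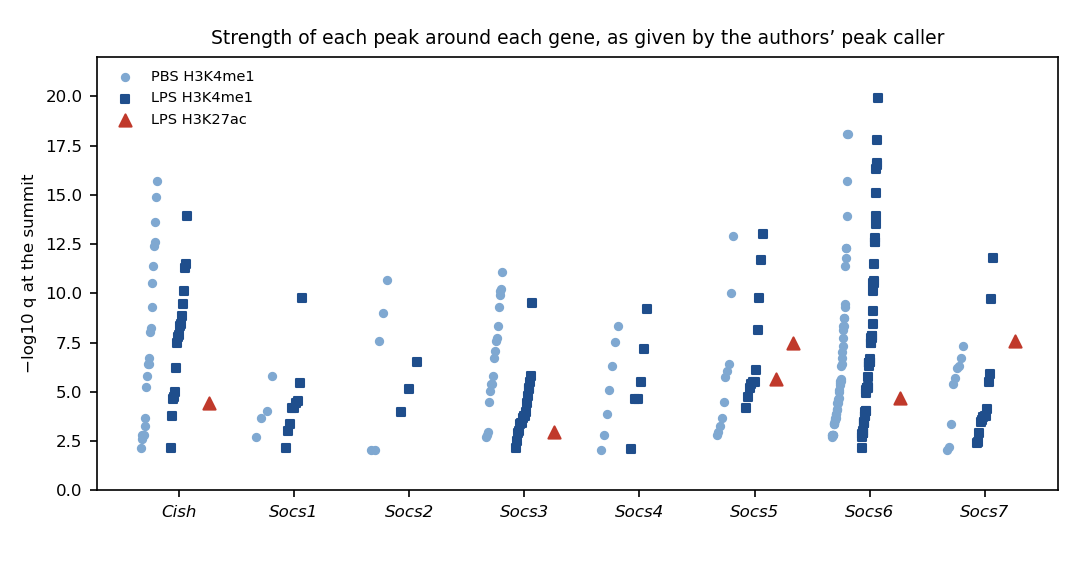
Each point is a peak in the window of the gene on the x axis, with the −log10 q at its summit as the authors' peak caller gave it on the y axis. The H3K4me1 peaks of Socs6 reach 18.1 under PBS and 19.9 under LPS and the LPS H3K27ac peaks lie between 2.96 and 7.59, and since −log10 q depends on the library, heights are to be compared within a list.

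The genes that act with SOCS proteins were described in the same windows, using 45 cytokine receptors, JAKs, STATs, other inhibitors and partners of the SOCS box. Of these, 26 had an LPS H3K27ac peak in the window and 6 within 1000 bp of the TSS, beside 27.7% and 5.01% of all genes. A PBS H3K27ac peak was listed for 0 of them. Of the 12 macrophage markers, 8 had an LPS H3K27ac peak in the window and 2 at the promoter, and of the 8 SOCS genes 5 and 1. In the window it was 2 of 5 T cell, 2 of 5 neutrophil, 0 of 5 B cell and 0 of 5 fibroblast markers. A peak in the windows of several neighbouring genes was counted for each, so the 45 genes are not independent. The 6 with a promoter peak were Stat5a, Ifnar2 (a chain of the type I interferon receptor), Csf3r (the receptor of granulocyte colony-stimulating factor), Pias4 (a SUMO ligase that restrains STATs), Pim1 (a kinase gene induced by STATs) and Eloc (elongin C, which binds the SOCS box). The largest numbers of LPS H3K27ac peaks were 4 each at Eloc, Pim1 and Ptpn1, a phosphatase that acts on JAKs, and 3 at Il10ra and Stat5b. H3K4me1 was listed in the windows of 41 of the 45 genes under PBS and 42 under LPS, with medians of 11 and 13 peaks, beside 9.5 and 12 for the SOCS genes and 3 and 4 for all genes.

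In the number of peaks over the 4 lists, Socs5, the member with the most LPS H3K27ac peaks, had 12 genes with exactly the same counts of 10 PBS H3K4me1, 11 LPS H3K4me1, 0 PBS H3K27ac and 2 LPS H3K27ac peaks. The first of these by symbol were Atg4d, Dnaaf3 and Eloa.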

How the data were processed

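CUT&RUN peak lists of 4 libraries (H3K4me1 and H3K27ac, 1 h LPS or PBS, 1 library each) were used, with groups taken from the sample labels. The 2 IgG libraries were not analysed here. According to the study's methods and processing notes, the authors trimmed the reads, mapped them with Bowtie2 2.4.4 to GRCm38, dropped blacklisted regions and ran MACS2 2.2.7.1 on each library without pooling. Each deposited list gives a whole-number score derived from the q-value, which was not used, the summit position, the fold enrichment (the ratio between coverage and local background), and the −log10 of the p-value and of the q-value at the summit. All deposited −log10 q values were 2 or higher. Fold enrichment and −log10 q depend on the depth and background of a library and were not compared between lists. The number of fragments at each summit was reconstructed from the deposited fold enrichment and −log10 p by the formulas of MACS2, and 13 of the 262 peaks around the SOCS genes had more than 1 solution. A scale of the fragment counts was fitted for each list. The reconstruction was tested on data simulated with the same formulas. That test checks the calculation and cannot show whether the formulas or the fitted scales hold for the deposited lists.

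Genes and TSSs came from GENCODE release M21, while the authors used M23 of the same build. Peaks were counted with Python 3.11.15 and overlapped with bedtools 2.31.1 (at least 1 bp). A promoter peak overlapped the 1000 bp on either side of the TSS. A counterpart is a peak of the same mark in the list of the other treatment. Motifs were sought as letters on both strands in 300-base windows. RefSeq promoters were at hand for 4 of the 8 genes. The sequence at the Socs5 H3K27ac summits is not reported here. The genes, the marker and pathway lists and the settings were chosen with earlier results of these data known. Described are all H3K27ac peaks in the windows, all H3K4me1 promoter peaks, the strongest 2 and the widest H3K4me1 peak of each gene and list, pathway genes with a promoter H3K27ac peak under LPS, the 5 pathway genes with the most LPS H3K27ac peaks, and the 3 genes whose counts were closest to those of the member with most such peaks. Alternatives changed the window to 10 or 100 kb or to 50 kb on either side of the TSS. They also changed the promoter to 2500 bp or to any transcript start, and the overlap to 50% of both peaks or to peaks extended by 500 bp. Others changed the threshold to a −log10 q of 5, merged peaks within 1000 bp, or kept peaks whose nearest TSS was the member's.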

Additional observations from a re-analysis of the deposited data

How the results depend on the processing

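No paired analysis was possible because each treatment and antibody had 1 library. No library was left out, since each was the only 1 of its kind, and no result was tested. Of 48 recomputed values, 25 stayed within the limits set and 23 moved. A count stayed if it was within a fixed factor of the main value, and a share if it was within the Wilson interval of the main share.

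The number of SOCS genes with an LPS H3K27ac peak, 5 in the report, was 2 with 10 kb on either side of the gene (Socs5 and Socs6), 2 with a −log10 q of at least 5 (Socs5 and Socs7) and 3 when the member had to have the nearest TSS. It was 7 with 100 kb and 4 with 50 kb on either side of the TSS, which were both within the limits. The values that follow are those that moved. The 6 LPS H3K27ac peaks became 3 with 10 kb, 11 with 100 kb and 3 with the higher −log10 q. The 131 LPS H3K4me1 peaks became 71 with 10 kb, 197 with 100 kb, 76 with the higher −log10 q and 79 after merging of peaks within 1000 bp. The 125 PBS H3K4me1 peaks became 67 with 10 kb, 75 with the higher −log10 q, 74 after merging and 73 with the nearest TSS. When peaks had to share 50% of both, the shares with a counterpart were 29.6% of PBS and 28.2% of LPS H3K4me1 peaks. Of LPS H3K27ac peaks, 16.7% (1 of 6) then overlapped H3K4me1. With peaks extended by 500 bp these shares were 81.6%, 75.6% and 100% (6 of 6), and with 10 kb the last one was 0% (0 of 3). The shares of the whole lists under these settings were not computed. Counting the start of any transcript, 2 genes had an LPS H3K27ac promoter peak, and with the higher −log10 q 1 had a PBS H3K4me1 promoter peak. The settings differ in how many peaks and how much sequence they take in, and what moved each value was not tested.

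The low number of fragments at summits limits the lists, above all for H3K27ac. Whether a site listed under 1 treatment only lay just under the threshold in the other library was not tested.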
